A study of Mus musculus with 8 samples.

Results

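Alkbh5 and Fto encode the demethylases of N6-methyladenosine (m6A), the methyl mark on internal adenosines of mRNA. All m6A peaks that the deposited lists assigned to either gene were collected by gene name. They numbered 25 of 38705 peaks over 4 libraries, 11 for Alkbh5 and 14 for Fto. Peaks of different libraries that shared at least 1 bp were joined into a region, which gave 10 of 21168 regions, 4 in Alkbh5 and 6 in Fto.

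The peaks come from MeRIP-seq of mouse embryonic fibroblasts (MEFs), primary cells of wild type C57BL/6 embryos taken 13.5 days post-coitum and used at passage 5 to 6. Control cells stayed in full medium, and starved cells were held for 2 h in nutrient-deprived medium, a balanced salt solution buffered with HEPES according to the methods. Each group had 2 replicates, each with an immunoprecipitated (IP) library pulled down with an m6A antibody and an input library, so that 8 samples gave 4 peak lists. The labels number the replicates without saying how they were made, and the study's supplement calls them biological replicates.

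The m6A mark is written by the METTL3-METTL14 complex, read by YTH-domain and other proteins, and erased by ALKBH5 and FTO. Both erasers are iron- and 2-oxoglutarate-dependent dioxygenases of the AlkB family. ALKBH5 is a nuclear enzyme that acts on m6A in mRNA, while FTO also removes the methyl group of m6Am next to the cap. m6A occurs in the DRACH consensus (A, G or T, then A or G, then AC, then A, C or T), with GGAC as its best known core, and it is typically dense around stop codons and in 3′ UTRs.

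The sequences that the results turn on were read from the RefSeq GRCm38.p6 genome, which is the mm10 assembly of the peak lists, and all are given 5′ to 3′ on the plus strand, which both genes use. The first set holds GGAC sites of Alkbh5 with the DRACH pentamer in capitals. The first 4 sites lie in the exon 1 coding sequence that all 4 libraries covered. The fifth site lies in the stretch of the distal 3′ UTR that only the starved libraries covered, and the sixth lies where both control libraries and starved replicate 1 had a peak.
Alkbh5 exon 1, chr11:60538578-60538598: ggcgtccgGGACCaccaagcg
Alkbh5 exon 1, chr11:60538603-60538623: taccaggaGGACTcggacccc
Alkbh5 exon 1, chr11:60538609-60538629: gaggactcGGACCccgagcgc
Alkbh5 exon 1, chr11:60538789-60538809: cacacggtGGACCgggccccc
Alkbh5 distal 3′ UTR, chr11:60557431-60557451: gagcttgaGGACAgcctaggc
Alkbh5 distal 3′ UTR, chr11:60557935-60557955: ttaagcaaGGACTctaccact

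The second set holds the 3 DRACH pentamers, again in capitals, of the most enriched Fto region, at exon 7. None of them is a GGAC. The first and the second lie in exon 7, and the third lies past its end.
Fto exon 7, chr8:91485199-91485219: atcgatacAAACTttgcaccg
Fto exon 7, chr8:91485230-91485250: tgagcccaTGACTcacctgga
Fto past exon 7, chr8:91485418-91485438: gtttcaggAAACAtttctgat

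The third set shows annotated stop codons under peaks, in capitals, because Fto peaks sat at the ends of several alternative transcripts. Fto-201 is the GENCODE name of the full-length transcript, and Fto-202 and Fto-204 are shorter coding transcripts that end in an extended exon 4 and an extended exon 7.
Alkbh5, chr11:60554413-60554415: gaggagacacTGAggctctgtgc
Fto-201, chr8:91666433-91666435: agcaagatccTAGaggaagcaca
Fto-202, chr8:91441869-91441871: ttggatacttTGAatttgtagtg
Fto-204, chr8:91485288-91485290: ggtaagtgcgTGAggtctgagca
The last sequence spans the end of exon 7 in lower case and the first 12 bases of the extension in capitals. The extension opens with GTAAGT, the form of a 5′ splice site, and its final codon is the Fto-204 stop codon.
Fto exon 7 end, chr8:91485267-91485290: atggagagcatgGTAAGTGCGTGA

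In each list a peak has a fold enrichment, the ratio of IP signal to the local input background, and a score, minus 10 times log10 of the peak p-value, which the lists mostly stop at 3100. The lists held 10103 and 9871 peaks in control replicates 1 and 2, and 9757 and 8974 in starved replicates 1 and 2. The median fold enrichment of a list was 12.21 and 12.27 in the control and 14.58 and 14.69 in the starved libraries. The score limit was reached by 17.0% and 13.2% of control peaks and by 28.5% and 27.8% of starved peaks. Reads and depths are not given in the lists, so the depth of each library is unknown, and the lack of a peak is not the lack of m6A. In these bulk samples, fewer cells with a transcript and less of it per cell cannot be told apart. Of 10 fibroblast genes, 8 had a peak in some library, with none for Col1a1 or Vim, against 2 of 4 epithelial, 1 of 3 blood, 1 of 3 endothelial and 2 of 3 neuronal genes. The share of all genes with a peak was not computed, and a peak is not a measure of expression, so these counts do not establish the cell type.

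Both genes had at least 2 peaks in every library. Alkbh5 had 2 and 4 peaks in control replicates 1 and 2 and 3 and 2 peaks in starved replicates 1 and 2. The groups overlapped, with 3 ± 1.41 peaks in control and 2.5 ± 0.707 in starved cells (SD, n = 2, two-sided exact permutation p = 1). Fto had 5 and 4 peaks in the control and 3 and 2 peaks in the starved libraries. Every starved library had fewer Fto peaks than every control library, with 4.5 ± 0.707 in control against 2.5 ± 0.707 in starved cells (SD, n = 2, difference −2, two-sided exact permutation p = 0.333). The share of all genes with this pattern was not computed. The starved lists were also shorter as a whole, with 9757 and 8974 peaks against 10103 and 9871 in the control. With 2 libraries against 2, 0.333 is the smallest p the test can give, so no comparison between the groups could reach 0.05. The Fto difference was −1.5 with peaks of at least 4-fold enrichment or with a score of at least 100 (exact permutation p = 0.333 for each). It was −1 with lists of equal length, where the groups were no longer apart (exact permutation p = 0.667), and turned to 1 peak more in starved cells with peaks of a false discovery rate under 20%. That cutoff removed Fto peaks of control libraries only. Their rates were 37.72%, 54.02%, 58.01% and 72.49% in control replicate 1 and 20.28% and 31.83% in control replicate 2. The peak at 20.28% was the exon 3 peak of 7.52-fold. The exon 3 peak of starved replicate 1, of 6.31-fold with a rate of 17.65%, was kept.

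The span under Fto peaks was 2088 bp and 1626 bp in the control and 1160 bp and 499 bp in the starved libraries. The span under Alkbh5 peaks was 1163 bp and 1980 bp in the control and 1580 bp and 978 bp in the starved libraries, and here the groups overlapped. How many of all genes have groups apart in span, as Fto has, was not computed. Peaks in all 4 libraries were found for 29.2% of the 9778 genes with any peak. At least 4 regions were found for 15.0% of those genes and at least 6, the number in Fto, for 4.05%. Of the 10 regions, 3 had a peak in each library, as 10.7% of all regions did, and 0 had a peak in both starved and neither control library, a pattern of 3.20% of all regions.

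**Figure D1:**
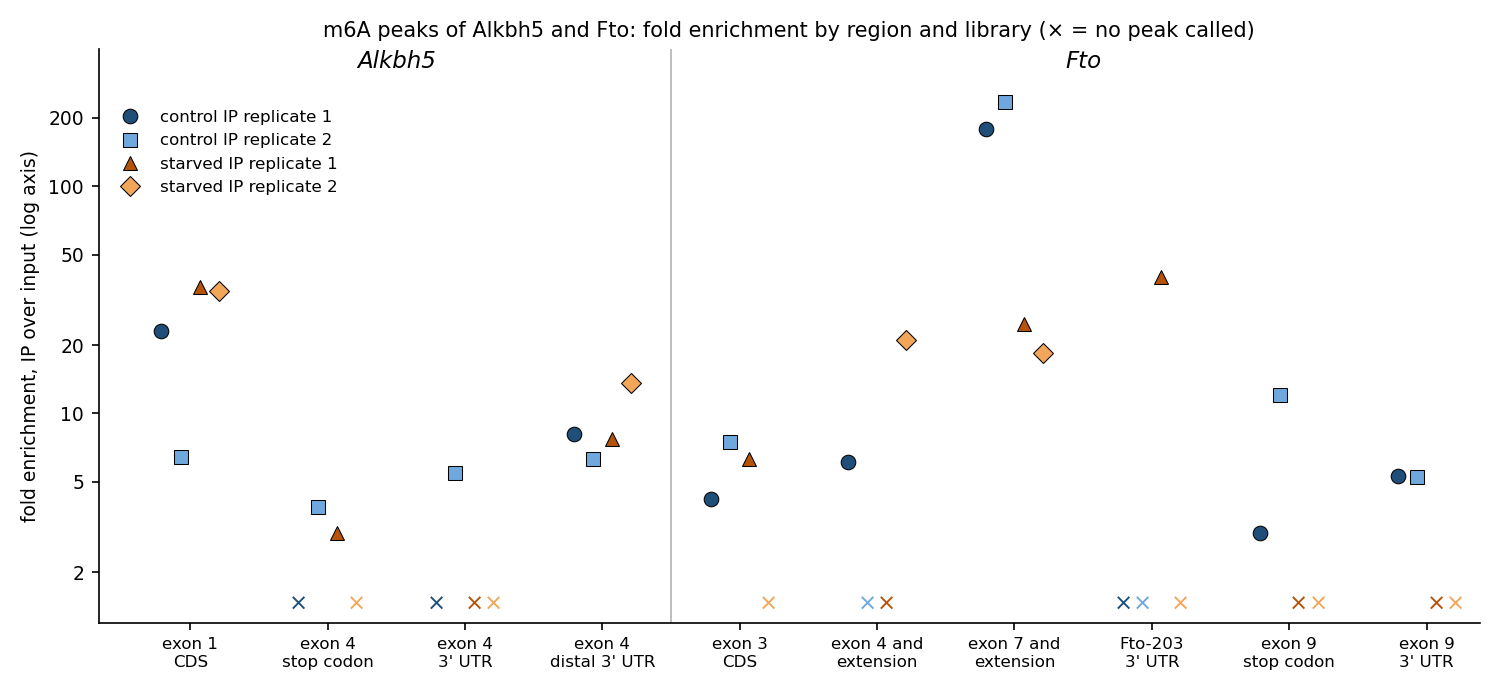
Fold enrichment (IP over input, log axis) of every peak of Alkbh5 and Fto, by region and library, with a cross where no peak was called. The exon 7 region of Fto stands at 178.24 and 234.08 in the control libraries and at 24.81 and 18.37 in the starved libraries, while every other peak lies at or under 39.71.

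Alkbh5 is a 4-exon gene (NM_172943.4, chr11:60537683-60558512) that encodes a protein of 395 residues and has a 3′ UTR of 4097 bases in its last exon. Its strongest peaks lay in the exon 1 coding sequence (chr11:60538455-60539195), 741 bp that encode the first part of the protein. There the fold enrichment was 22.98 in control replicate 1, 6.42 in control replicate 2, 36.17 in starved replicate 1 and 34.53 in starved replicate 2. Both starved libraries stood above both control libraries, a pattern that 22.9% of the 2257 regions called in all 4 libraries also had. The peak score was at 3100 in each library except control replicate 2, where it was 342.81.

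On the log2 scale the Alkbh5 exon 1 difference was 1.54 (control 3.60 ± 1.30, starved 5.14 ± 0.0473, SD, n = 2, two-sided exact permutation p = 0.333). The control SD shows how far the control replicates lay apart, and the difference was 0.62 without control replicate 2. Over all regions with 4 peaks the median difference was 0.10, with quartiles at −0.58 and 0.78. A difference at least as high as that of exon 1 was found in 7.89% of them.

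The exon 1 region was rich in G and C (66.13%) and held 6 GGAC, where 3 was the median of 20584 windows of the same length, centred on the regions of genes with a known strand, and 11.7% of windows held at least 6. GGAC was read on the transcribed strand only, and a GGAC followed by A, C or T also counts as DRACH. The region held 9 DRACH sites against a median of 15, with 10.5% of windows at 9 or fewer, so it was high in GGAC but low in DRACH. Of its 9 DRACH sites, 4 lay in the 391 bp that all 4 libraries covered (9.38% of all bases under any peak were covered so). These are the 4 exon 1 sequences printed above. The peaks of control replicate 1 (chr11:60538455-60539195) and starved replicate 2 (chr11:60538519-60539195) ended at the last base of exon 1. Those of control replicate 2 (chr11:60538458-60538949) and starved replicate 1 (chr11:60538458-60538909) ended inside the exon.

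The Alkbh5 stop codon lay under a peak in control replicate 2 (chr11:60554238-60554798) and in starved replicate 1 (chr11:60554254-60554668). The fold enrichment was 3.86 and 2.99, and the scores of 59.07 and 61.33 were near the lowest scores listed, with false discovery rates of 69.65% and 70.01%. These are among the weakest peaks of their lists. A further 3′ UTR peak (chr11:60555168-60555739) was called in control replicate 2 only, with a fold enrichment of 5.49 and a score of 186.15. Peaks in a single library made up 56.2% of all regions.

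In the distal Alkbh5 3′ UTR (chr11:60557375-60558257) every library had a peak, but not at the same bases. The fold enrichment was 8.1 and 6.31 in the control and 7.69 and 13.57 in the starved libraries, so the groups overlapped (log2 difference 0.51, two-sided exact permutation p = 0.667). The control peaks spanned chr11:60557830-60558251 and chr11:60557903-60558257. The starved peaks spanned chr11:60557375-60558087 and chr11:60557379-60557679, on the side nearer the stop codon.

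The peak of starved replicate 2 shared no base with either control peak, and the long peak of starved replicate 1 joined them into one region. Some pair of libraries without a shared base was found in 7.80% of the regions with 4 peaks. Both starved libraries and neither control library covered 301 bp, and both control libraries and neither starved library covered 164 bp. Over all bases under any peak, these patterns took 4.10% and 4.09%. The score of starved replicate 2 was 3137.48 there, higher than 99.2% of the peaks of its list. That share says little about strength, since 27.8% of the peaks of this list reached the score limit. By fold enrichment the same peak was above 47.3% of the peaks of its list. The other scores were 1123.48 and 338.22 in control replicates 1 and 2 and 635.24 in starved replicate 1.

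The genome marks repeats in lower case, and such bases made up 35.9% of the distal region and 37.9% of the 301 bp covered in starved libraries only, against 6.21% of the exon 1 region. No other place in the genome matched the region over 90% of its length at 90% identity. The part of repeats in the position of these peaks was not tested. The 301 bp held 1 GGAC and 5 DRACH sites, and the shorter 164 bp covered in control libraries only held 0 of either. The control peaks were not free of motifs, since the adjoining 185 bp under both of them and starved replicate 1 held 1 GGAC and 6 DRACH sites. The whole region held 13 DRACH sites against a median of 18 in windows of its length.

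**Figure D2:**
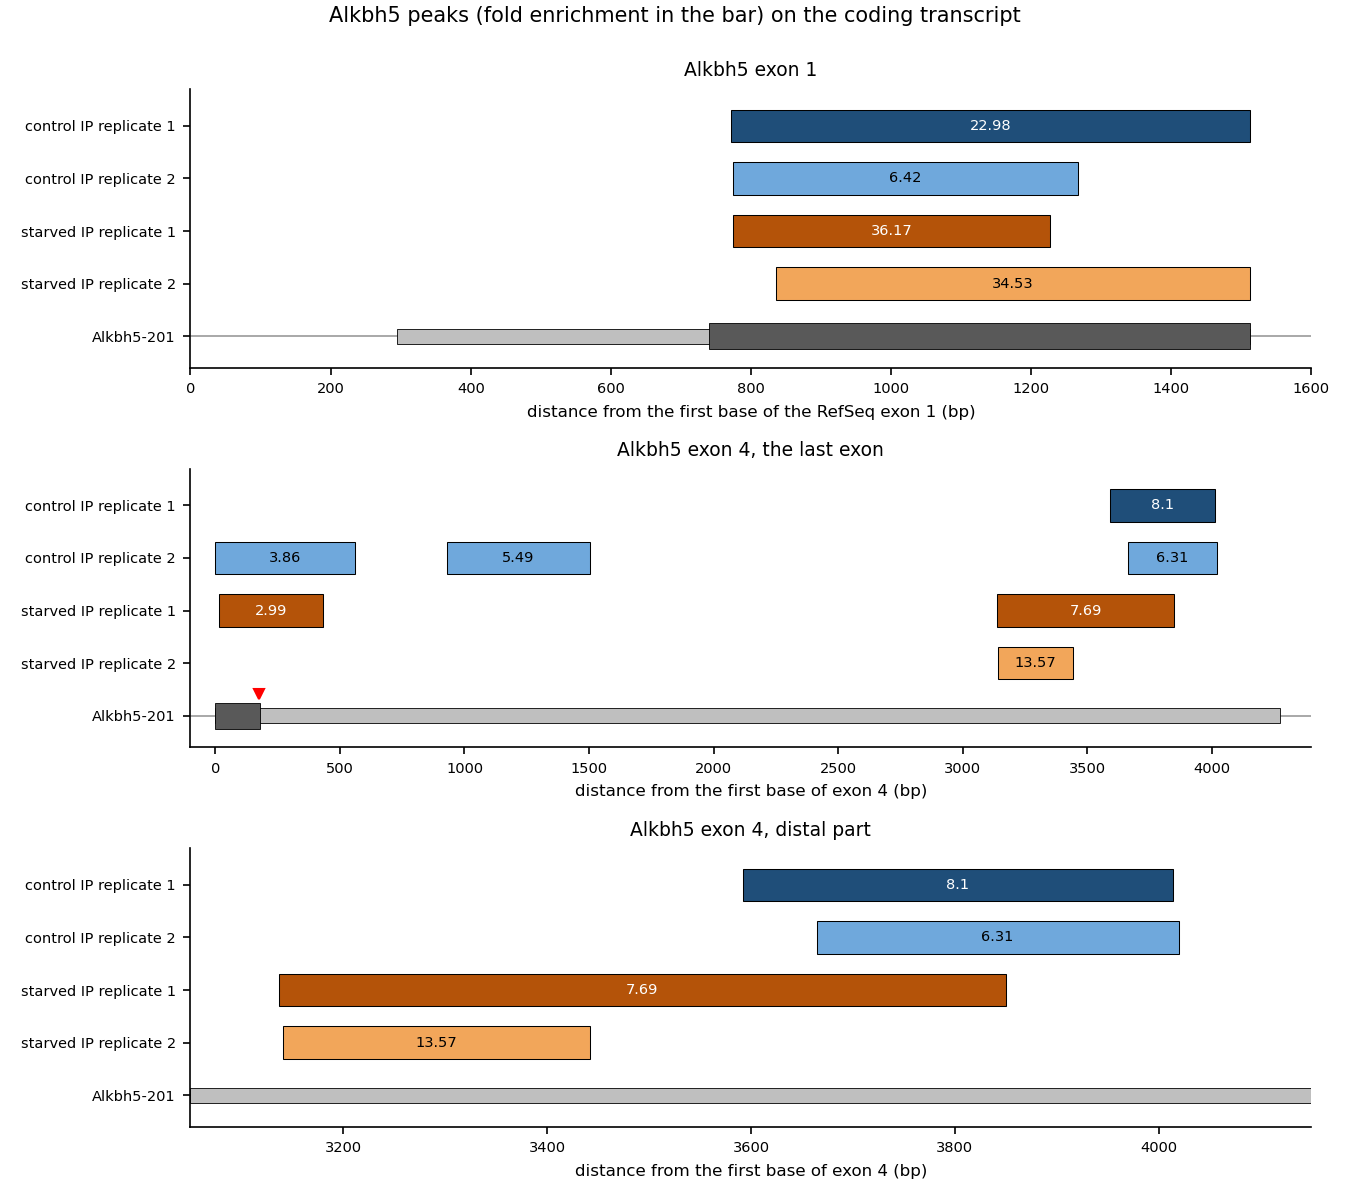
Alkbh5 peaks by library on exon 1, exon 4 and the distal part of exon 4, with distance in bp from the first base of the exon. Wide dark bars are coding sequence, narrow grey bars are UTR, the triangle is the stop codon, and the number in each bar is the fold enrichment. In the distal 3′ UTR the peak of starved replicate 2 ends before either control peak begins.

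Fto is a much longer gene (NM_011936.2, chr8:91313525-91668433) with 9 exons and a protein of 502 residues. Of its 14 peaks, 7 had bases outside the exons of this RefSeq transcript, against 0 of 11 for Alkbh5 and its RefSeq transcript. Over the 37485 peaks of genes with a RefSeq Select transcript, the kind used for both genes, the share was 15.0%. The 7 Fto peaks came from the exon 7 region (4 peaks), the exon 4 region (2 peaks) and the Fto-203 region (1 peak). All of their bases outside the exons of NM_011936.2 lay in GENCODE transcripts that end early, Fto-202, Fto-203 and Fto-204. The authors kept only peaks on mRNA exons, so a place in some annotated exon was largely set by that filter. It does not show which transcript carried m6A. A peak began at the first base of an annotated exon in 9 of 14 Fto peaks and 1 of 11 Alkbh5 peaks, as 30.4% of all peaks did. A peak ended at the last base of an exon in 2 of 14 and 2 of 11, against 30.1% of all peaks.

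The most enriched region lay at Fto exon 7 (chr8:91485159-91485439) and had a peak in all 4 libraries. The fold enrichment was 178.24 and 234.08 in control replicates 1 and 2, and 24.81 and 18.37 in starved replicates 1 and 2. Both starved libraries stood below both control libraries, which 18.0% of the regions with 4 peaks also showed. Within its list the peak was above 98.4% and 98.9% of control peaks and above 68.0% and 57.6% of starved peaks. The score was 3100 in both control libraries, at the limit, and 2331.56 and 941.86 in the starved libraries.

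The mean log2 fold enrichment of this region was 7.67 ± 0.278 in control and 4.42 ± 0.307 in starved cells (SD, n = 2). The difference of −3.26 is 9.57-fold lower in starved cells and larger than the SD of either group, although the two-sided exact permutation p of 0.333 cannot fall further with these 4 libraries. Only 4 of the 2257 regions with 4 peaks had a larger fall in enrichment, which puts this one in the lowest 0.222%. With the median of each list taken off, the difference was −3.52. Leaving out any library kept it between −3.48 and −3.04.

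All 4 peaks began at the first base of exon 7 and ran past its 120 bp of coding sequence, by 161, 159, 143 and 159 bp in the same order of libraries. Their ends were thus close together, at position 91485439 in control replicate 1, 91485437 in control replicate 2 and starved replicate 2, and 91485421 in starved replicate 1. Only Fto-204 holds the whole peak in its annotated exon. The Fto-204 stop codon lies 12 bp past the end of exon 7, inside all 4 peaks. The region held no GGAC, which 70.7% of windows of the same length hold, and 3 DRACH sites against a median of 6, with 17.7% of windows at 3 or fewer. It held 0% repeat bases and had no other copy at 90% identity. The lists assign these 4 peaks to a UCSC transcript model other than the RefSeq transcript, and likewise the peaks at exon 4 and in Fto-203 described next. These models were matched to the GENCODE transcripts by position only.

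A second extended exon, exon 4 (chr8:91441663-91441965), showed the same arrangement in 2 libraries. The fold enrichment was 6.13 in control replicate 1 and 20.98 in starved replicate 2, with scores of 264.25 and 1637.35 and no peak in the other libraries. The starved peak was the shorter (chr8:91441663-91441882) and the control peak took the whole region. Both peaks began at the first base of exon 4 and ran 159 bp and 76 bp past its end, over the Fto-202 stop codon that lies 65 bp beyond the exon. A peak in 1 control and 1 starved library was seen in 13.6% of all regions.

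The last exon of Fto-203 held a peak (chr8:91525022-91525372) in its 3′ UTR in starved replicate 1 only. Its fold enrichment was 39.71 and its score 1728.33, so that it was the strongest Fto peak of that library. It held 0 GGAC and 11 DRACH sites. No peak lay on the Fto-203 stop codon, and of the 5 distinct stop codons of Alkbh5 and these Fto transcripts the other 4 had at least 2 peaks each. The share of all annotated stop codons under a peak was not computed.

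In the coding sequence, exon 3 (chr8:91409223-91409841), the longest coding exon of Fto and common to its main coding transcripts, carried a weak peak in 3 libraries. By fold enrichment it stood at the 9.58 and 30.5 percentiles of control lists 1 and 2 and the 18.9 percentile of starved list 1. The fold enrichment was 4.21 and 7.52 in control and 6.31 in starved replicate 1, and no peak was called in starved replicate 2. The starved value lay between the control values. The scores were 139.15 and 495.72 in control and 889.28 in starved replicate 1. The peak of control replicate 2 covered the whole exon, that of control replicate 1 spanned chr8:91409334-91409841, and that of starved replicate 1 spanned chr8:91409223-91409768. A peak in 3 libraries was found in 12.2% of all regions.

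The full-length end of Fto had peaks in control libraries only. At the Fto-201 stop codon in exon 9 (chr8:91666282-91666701) the fold enrichment was 2.99 and 12 in control replicates 1 and 2. In the 3′ UTR (chr8:91667202-91667990) it was 5.28 and 5.25. The stop codon peaks spanned chr8:91666368-91666701 in control replicate 1 and chr8:91666282-91666522 in control replicate 2. The 3′ UTR peaks spanned chr8:91667329-91667990 and chr8:91667202-91667688 in the same order. Neither starved library had a peak in either place.

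Peaks in both control and neither starved library made up 4.15% of all regions. At least 2 such regions, as in Fto, were found for 0.358% of the 9778 genes with any peak. That share is not matched for region number, since only 4.05% of those genes have at least 6 regions, as Fto has. The calls were weak in control replicate 1, with scores of 76.44 and 121.16 and false discovery rates of 72.49% and 58.01%, against 1207.82 and 229.22 for the scores in control replicate 2. With peaks of a false discovery rate under 20%, or with equally long lists, 0 regions of Fto kept this pattern. The 3′ UTR region held 5 GGAC, and 23.5% of windows of its length held at least as many.

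**Figure D3:**
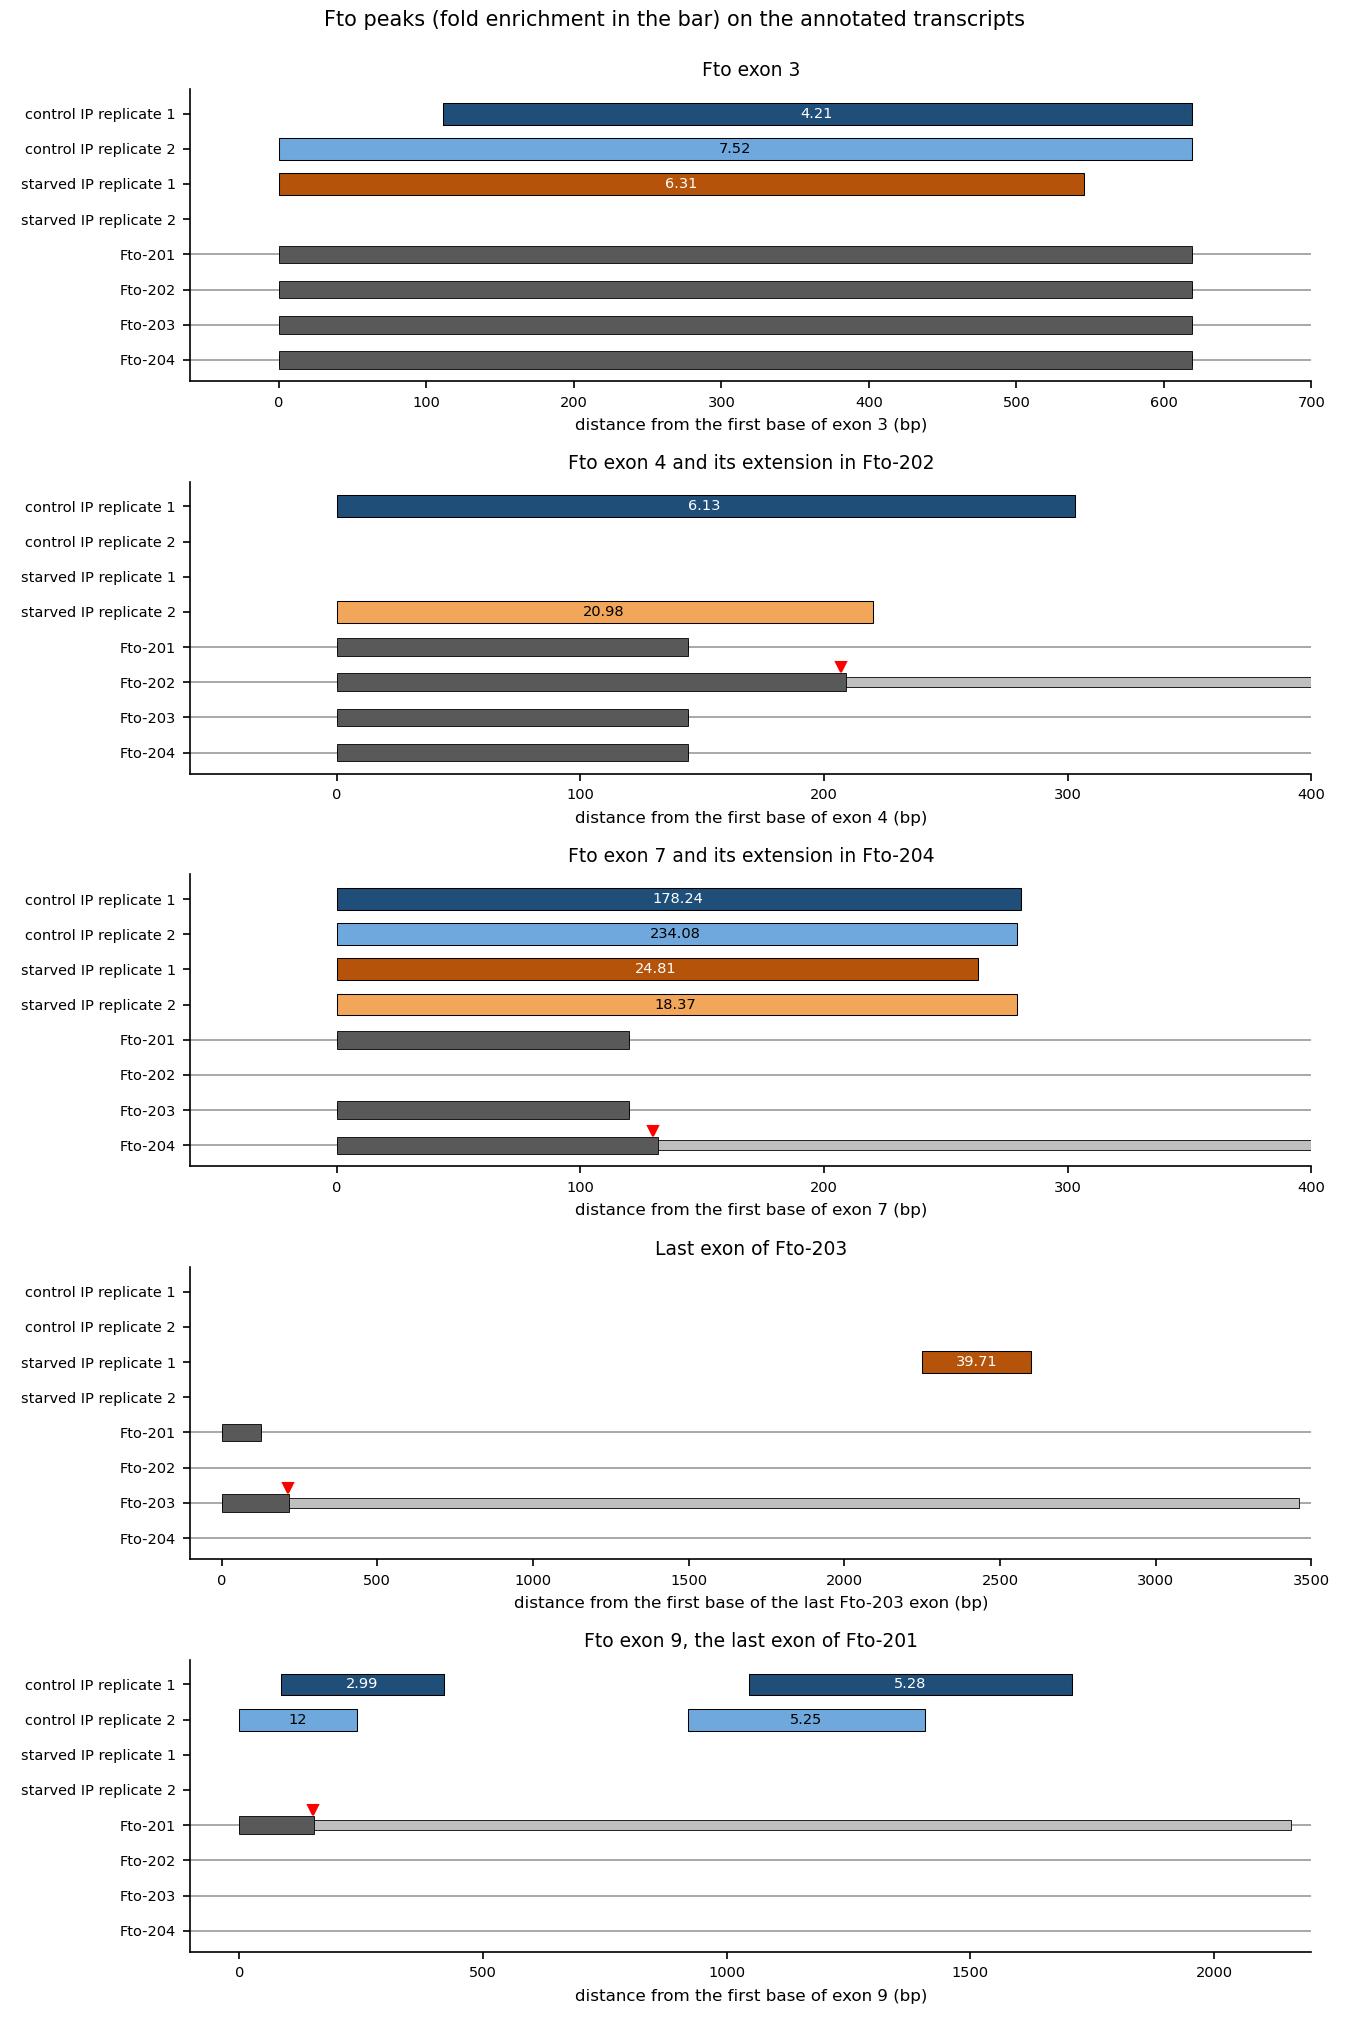
Fto peaks by library on exon 3, exon 4, exon 7, the last exon of Fto-203 and exon 9, with distance in bp from the first base of each exon, above the annotated coding transcripts. Wide dark bars are coding sequence, narrow grey bars are UTR, triangles are stop codons, and the number in each bar is the fold enrichment. The 4 peaks at exon 7 run past the Fto-204 stop codon, and exon 9 has peaks in both control libraries and neither starved library.

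**Figure D4:**
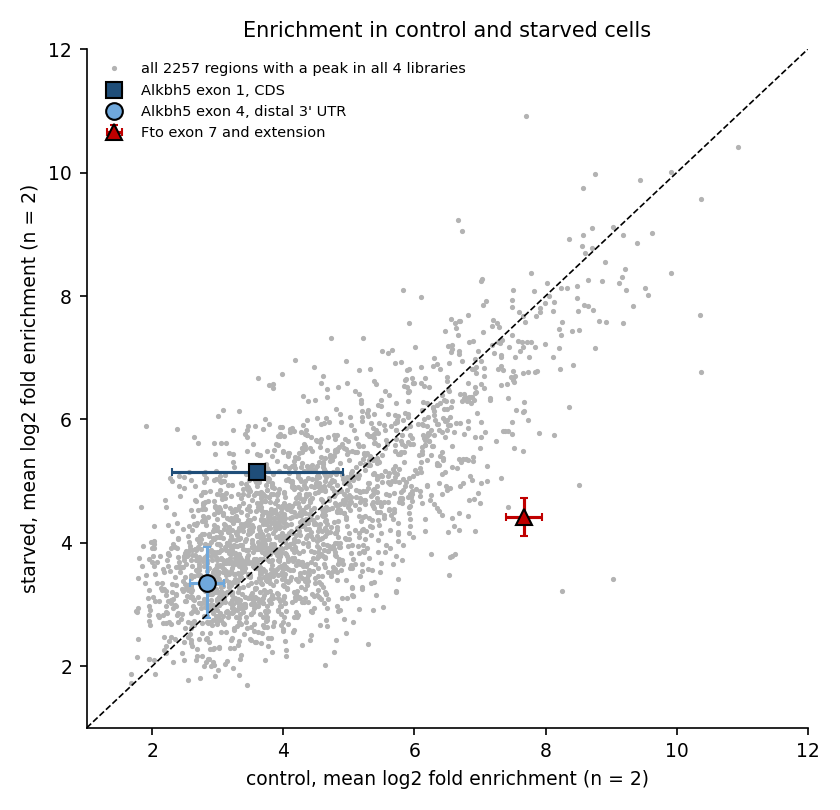
Mean log2 fold enrichment in starved against control libraries for the 2257 regions called in all 4 libraries (grey), with the 3 such regions of Alkbh5 and Fto marked (bars are the SD, n = 2). The dashed line is equality. The Fto exon 7 region lies at 7.67 in control and 4.42 in starved cells, far under the line, and the Alkbh5 exon 1 region lies above it with a wide control error bar.

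By its strongest peak, Fto ranked 165 of 6387 genes and 109 of 6170 genes in control replicates 1 and 2, and 1694 of 6159 and 2790 of 5839 in starved replicates 1 and 2. In both control libraries that peak was at exon 7. In starved replicate 1 it was the Fto-203 peak and in starved replicate 2 the exon 4 peak. Alkbh5 ranked 2434 and 5176 in the control and 1837 and 1850 in the starved libraries, always by its exon 1 peak.

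The genes whose strongest peak had the most similar values over the 4 libraries were sought among 2787 genes with a peak in each library. Genes with Gm or Rik names were left out, so a closer gene among those would not be named. Likeness was the Euclidean distance between log2 fold enrichments. For Fto they were Slfn8 (distance 0.497), Ccdc51 (0.956) and Pik3r4 (1.06). For Alkbh5 they were Ro60 (0.426), Nck1 (0.50) and AK043046 (0.605).

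Of 7 other members of the AlkB family, 4 had a peak, each in 1 library only. Of all regions 56.2% had a peak in 1 library only. The shares of all genes with a peak, or with peaks in 1 library only, were not computed. Alkbh4, which acts on actin, had a fold enrichment of 38.27 and Alkbh2, a DNA repair enzyme, one of 16.9, both in control replicate 1. Alkbh8, a tRNA modifier, had 25.39 in control replicate 2, and Alkbh1, which acts on tRNA and other substrates, had 7.98 in starved replicate 2. No peak was listed for Alkbh3, Alkbh6 or Alkbh7.

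Of the 9 writer genes (Mettl3, Mettl14, Mettl16, Wtap, Virma, Rbm15, Rbm15b, Zc3h13 and Cbll1), 8 had a peak and 5 had one in every library, with no peak for Mettl3, the catalytic subunit. Peaks in every library were found for 29.2% of genes with any peak, and the share of all genes with a peak was not computed. The 27 regions of the writer genes included 10 with a peak in all 4 libraries, as 10.7% of all regions had. Of these 10, 2 were higher and 1 lower in both starved libraries, where 22.9% and 18.0% of all such regions were. Their median difference was 0.32, beside 0.10 over all such regions. Of the 10 reader genes (Ythdf1, Ythdf2, Ythdf3, Ythdc1, Ythdc2, Igf2bp1, Igf2bp2, Igf2bp3, Hnrnpa2b1 and Hnrnpc), 8 had a peak and 6 had one in every library. Their 23 regions included 5 with 4 peaks, of which 1 was higher and 3 were lower in both starved libraries, beside the same 22.9% and 18.0%. The median difference was −1.31 over only these 5 reader regions, beside the 0.10 over all such regions. Regions with a peak in both control and neither starved library (4.15% of all regions) numbered 4 in reader genes and 0 in writer genes. Regions with the opposite pattern (3.20% of all regions) numbered 0 in reader genes and 1 in writer genes.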

How the data were processed

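Peak lists of the 4 IP libraries were used, and samples were grouped by their titles. The authors aligned reads to mm10 with HISAT2 2.0.4 and called peaks in each library against its input with MACS2, then kept peaks on mRNA exons. The column headers are those of an older MACS series, so the caller version is uncertain. The deposited fold enrichment is a ratio to input, the deposited score is minus 10 times log10 of a p-value, and the deposited false discovery rate is in percent. The authors' table of differential sites, which holds fold changes, p-values, false discovery rates and directions, was not used. The number of per-sample columns left unmapped was 0.

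Listed starts are 0-based, so 1 was added. Peaks sharing 1 bp were merged over libraries, and the strongest peak of a library stood for a region. The group test was a two-sided exact permutation test, with 3 possible splits of 4 libraries. Exons came from the RefSeq Select transcripts of GRCm38.p6 and from GENCODE M21. Copies were sought with blastn 2.17.0, starting from bases not marked as repeats. Python 3.11.15, numpy 2.4.6, pandas 2.3.3, pyfaidx 0.9.0.4 and matplotlib 3.10.9 were used, and 14 of 14 quantities were recovered on simulated data. All peaks of both genes were named, with 3 most similar genes each. The genes and lists were chosen with earlier results of these data known. Alternatives covered cutoffs on fold (4), score (100) and false discovery rate (20%), equal list lengths, assignment by exon, an overlap of 50% of the shorter peak, centring and leaving out libraries.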

Additional observations from a re-analysis of the deposited data

How the results depend on the processing

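Of 46 differences recomputed under an alternative for the peak counts and the 3 regions called in all 4 libraries, 42 kept their direction, 3 turned and 1 became 0. Among the 42, 9 moved by more than 1.5 times. Others among the 42 were simply the main value again. At the 3 regions the fold cutoff, overlap and list length settings, and a library's mean peak for its strongest, left each difference unchanged. Assignment by exon left both peak count differences unchanged. Such returned values add no support. With lists of equal length the Fto count difference was −1 (exact permutation p = 0.667), and with list medians taken off the distal Alkbh5 3′ UTR difference was 0.26. With peaks of a false discovery rate under 20%, the difference in peak count between starved and control cells turned to 0.5 for Alkbh5 and to 1 for Fto (exact permutation p = 1 and 0.667), and the Alkbh5 exon 1 and distal 3′ UTR regions gave no value, since control replicate 2 had no such peak in either and starved replicate 1 had none in the distal region. The 2 Fto regions with peaks in both control and neither starved library became 0 under that cutoff and with equal list lengths. Leaving out 1 library gave differences of −1.5 to 0.5 in the Alkbh5 peak count (0.5 without control replicate 2, 0 without starved replicate 2), −2.5 to −1.5 in the Fto count, 0.62 to 2.46 in log2 enrichment at Alkbh5 exon 1 (0.62 without control replicate 2, 2.46 without control replicate 1), 0.11 to 0.92 in the distal Alkbh5 3′ UTR and −3.48 to −3.04 at Fto exon 7, with no test. Why values changed was not tested.

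The replicate numbers are shared between groups, but deviations of same-numbered libraries had a correlation of −0.0173 over 2257 regions. These values showed no shared deviation, which cannot tell whether the replicates were made as pairs. With the replicate block the differences must equal those without it, since each number occurs once per group, and it tests nothing here. They were −0.5 and −2 peaks for Alkbh5 and Fto, and log2 differences of 1.54, 0.51 and −3.26 at Alkbh5 exon 1, the distal Alkbh5 3′ UTR and Fto exon 7.

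Unknown depth and input coverage limit every call of a missing peak, and the score limit hides differences between strong peaks.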
